A study of Mus musculus with 16 samples.

Results

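The families of secreted and membrane-bound guidance cues and their receptors were described in the facial ectoderm and mesenchyme of Esrp1 knockout (KO) and wild-type (WT) mouse embryos: ephrins and Eph receptors, semaphorins with plexins and neuropilins, Slits and Robos, netrins and Unc5 receptors. Members were taken by gene symbol alone from the deposited expression table, which holds 30286 symbols. Of 67 symbols that match, 64 were at 1 TPM (a transcript abundance scaled for sequencing depth and transcript length) or more in at least 1 group, and these comprise 33 ligands and 31 receptors. The other 3, Epha6, Plxnb3 and Ntn5, had highest values of 0.45, 0.37 and 0.62 TPM. Ntn3 was not analysed here. The 64 were 8 ephrins, 13 Eph receptors, 20 semaphorins, 8 plexins, 2 neuropilins, 3 Slits, 4 Robos, 2 netrins and 4 Unc5 receptors.

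The samples came from facial prominences of C57BL/6 embryos at embryonic day 12, with ectoderm and mesenchyme taken apart by surgery. The 4 groups were ectoderm of Esrp1-/- embryos, ectoderm of WT embryos, mesenchyme of Esrp1-/- embryos and mesenchyme of WT embryos. Each group had 4 libraries, made from pools of 6 to 7 embryos, and the deleted part of Esrp1, a splicing regulator of epithelial cells, is not stated. The table gives 1 value per group, so no difference below has a replicate check, a p-value or an error, and "higher" and "lower" describe the deposited values. Because the layers were measured in bulk, fewer cells of a type and less RNA per cell cannot be told apart.

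Guidance cues were named for steering growing axons, but the same ligands and receptors set borders between tissues, direct neural crest cells and shape blood vessels in the embryonic head. Ephrins are held on the cell surface and signal to Eph receptors on neighbouring cells, and can signal back into their own cell. Class 3 semaphorins are secreted and mostly act through neuropilins paired with plexins, whereas most other semaphorins are membrane proteins that bind plexins directly. Slits are large secreted proteins that act on Robo receptors, and netrins act on Dcc, neogenin and Unc5 receptors. In mice, loss of Efnb1, or of Ephb2 and Ephb3 together, gives cleft palate.

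The targeted gene, Esrp1, was at 62.9 TPM in KO ectoderm and 170.0 TPM in WT ectoderm, and at 1.0 and 1.01 TPM in KO and WT mesenchyme. Summed over 14 ectoderm markers, the targeted Esrp1 among them, the level was 2903 TPM in KO ectoderm and 3460 TPM in WT ectoderm. In KO and WT mesenchyme this level was 33.5 and 32.2 TPM. Summed over 17 mesenchyme markers, it was 795 and 401 TPM in KO and WT ectoderm, and 2885 and 3993 TPM in KO and WT mesenchyme. Endothelial markers (10 genes) added to 56.1 and 20.9 TPM in KO and WT ectoderm and to 259 and 352 TPM in KO and WT mesenchyme. Neuron markers (10 genes) added to 127 and 98.4 TPM in KO and WT ectoderm and to 280.1 and 176 TPM in KO and WT mesenchyme. In the same order the sums were 66.2, 16.3, 257 and 349 TPM for muscle markers, 61.6, 55.5, 118.5 and 80.2 TPM for glia of the neural crest, 24.8, 14.0, 53.9 and 53.3 TPM for macrophages and 244, 121, 45.0 and 78.5 TPM for nasal ectoderm. Red blood cell genes added to 3874 and 3626 TPM in KO and WT ectoderm and to 16180 and 15282 TPM in KO and WT mesenchyme. No marker of these lists was at 0 in any group.

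To show the DNA in front of the members on which the results turn, the 250 bases before the start site are printed for 6 genes, from RefSeq on GRCm38.p6. Epha1 and Epha3 are receptors of one family at opposite ends of the layer difference, Sema3e and Slit2 had among the highest ratios in KO ectoderm, and Ephb3 and Plxnd1 had among the lowest in KO mesenchyme. Capitals mark matches, on either strand, to any of 4 motifs: the GC box GGGCGG, the E-box CACCTG that Zeb and Snail proteins bind, the Lef/Tcf core CTTTGA and the Gli core GGGTGGTC.
Epha1 (chr6:42373269-42373518, minus strand): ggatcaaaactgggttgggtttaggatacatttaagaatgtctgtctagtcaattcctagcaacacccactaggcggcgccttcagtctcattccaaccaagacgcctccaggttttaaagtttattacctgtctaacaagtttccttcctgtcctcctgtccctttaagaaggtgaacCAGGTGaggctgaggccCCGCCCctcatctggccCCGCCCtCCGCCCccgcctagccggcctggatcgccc
Epha3 (chr16:63864176-63864425, minus strand): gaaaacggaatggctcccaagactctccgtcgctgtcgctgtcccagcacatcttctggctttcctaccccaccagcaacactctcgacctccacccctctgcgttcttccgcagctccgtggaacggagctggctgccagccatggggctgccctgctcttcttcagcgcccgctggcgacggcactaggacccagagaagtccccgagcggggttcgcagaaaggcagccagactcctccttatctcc
Sema3e (chr5:14025026-14025275, plus strand): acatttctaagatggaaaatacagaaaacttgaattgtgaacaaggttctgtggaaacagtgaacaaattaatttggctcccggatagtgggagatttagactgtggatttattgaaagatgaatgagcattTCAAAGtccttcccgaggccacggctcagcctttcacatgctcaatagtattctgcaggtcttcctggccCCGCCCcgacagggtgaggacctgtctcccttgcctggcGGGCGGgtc
Slit2 (chr5:47982905-47983154, plus strand): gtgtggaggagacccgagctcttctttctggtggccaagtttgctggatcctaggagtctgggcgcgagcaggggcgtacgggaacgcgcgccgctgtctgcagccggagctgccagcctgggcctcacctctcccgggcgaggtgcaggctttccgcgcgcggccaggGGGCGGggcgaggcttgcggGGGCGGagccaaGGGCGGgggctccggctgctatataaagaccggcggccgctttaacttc
Ephb3 (chr16:21204545-21204794, plus strand): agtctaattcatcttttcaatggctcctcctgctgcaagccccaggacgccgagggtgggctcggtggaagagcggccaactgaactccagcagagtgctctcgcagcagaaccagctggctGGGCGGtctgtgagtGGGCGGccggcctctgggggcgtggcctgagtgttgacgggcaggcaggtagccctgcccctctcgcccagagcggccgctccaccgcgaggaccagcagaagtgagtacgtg
Plxnd1 (chr6:115995006-115995255, minus strand): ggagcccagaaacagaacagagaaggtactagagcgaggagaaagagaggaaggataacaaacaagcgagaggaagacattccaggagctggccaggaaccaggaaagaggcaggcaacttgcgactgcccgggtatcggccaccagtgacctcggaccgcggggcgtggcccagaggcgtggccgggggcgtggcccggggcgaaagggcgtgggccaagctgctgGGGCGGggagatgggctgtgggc

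The Epha1 window held 3 GC boxes and 1 E-box, and the Epha3 window held none of the 4 motifs. Slit2 had 3 GC boxes, Ephb3 had 2 and Plxnd1 had 1. The Sema3e window had 2 GC boxes and 1 Lef/Tcf core, and with 48% G and C it was the poorest of the 6, against 54.4% in Epha1, 62.8% in Epha3, 69.6% in Slit2, 65.6% in Ephb3 and 64.8% in Plxnd1. Windows were used for 55 of the 64 members, 71 in all because some genes have several start sites. Those on chromosome 18, which holds Sema6a, were left out of the members' windows and of all windows. A GC box was present in 71.8% of the members' windows, against 32.7% of all 32851 windows in the table. An E-box of this type was in 14.1% against 17.2%, a Lef/Tcf core in 5.63% against 13.8%, and the Gli core in 0 of 71 against 0.703%. The median window had 64.4% G and C and 16 CpG pairs, compared with 52.4% and 6 over all windows. A match describes letters in this stretch and not a bound site.

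Within wild-type faces the guidance genes divided by layer. Most class 3 semaphorins and both netrins had more transcript in ectoderm, while neuropilins, Slits and Robos, with many membrane semaphorins, had more in mesenchyme. At 2-fold or more on the scale of log2(TPM + 1), 9 of 60 members with a mean of at least 1 TPM were higher in WT ectoderm, where 6.88% of all genes tested were higher, and 24 were lower in ectoderm, where 12.1% of all genes were. Counted by ligand and receptor, 6 of 32 ligands and 3 of 28 receptors were higher in ectoderm, and 12 ligands and 12 receptors were higher in mesenchyme. The median log2 ratio of ectoderm over mesenchyme was -0.43 for the members and -0.15 for all genes. The bars of layer difference show the 9 on the right and the 24 on the left.

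**Figure D1:**
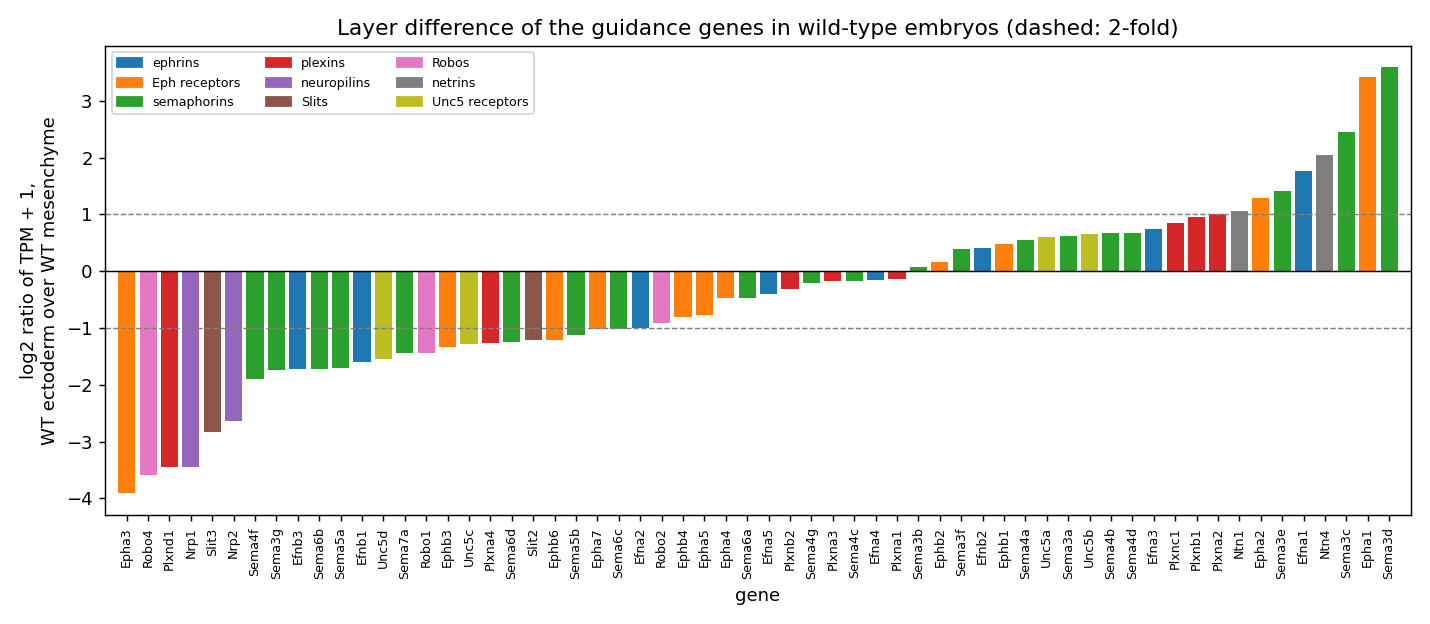
Each bar is the log2 ratio of TPM + 1 in WT ectoderm over WT mesenchyme for 1 of 60 guidance genes, coloured by family, and dashed lines mark 2-fold. Sema3d (3.59) and Epha1 (3.42) stand at the ectoderm end, and Epha3 (-3.91), Robo4 (-3.58), Plxnd1 (-3.45) and Nrp1 (-3.44) at the mesenchyme end.

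Among the semaphorins, secreted class 3 ligands led the ectoderm. Sema3d was at 56.0 TPM in WT ectoderm and 3.72 TPM in WT mesenchyme, a log2 ratio of 3.59, and Sema3c, which guides cardiac neural crest, at 28.6 and 4.42 TPM (2.45). Sema3e, a ligand that binds Plxnd1 directly, was at 4.41 TPM in WT ectoderm and 1.03 TPM in WT mesenchyme (1.41). These 3 were the semaphorins past 2-fold toward ectoderm. Sema3f had the highest level of any semaphorin, 208 TPM in WT ectoderm and 158 TPM in WT mesenchyme, and Sema3a, the classical growth cone collapsing factor, was at 69.3 and 44.6 TPM, so both were within 2-fold. Sema3g was the 1 class 3 ligand past 2-fold toward mesenchyme, at 0.21 and 3.05 TPM. Of 13 membrane semaphorins 7 were past 2-fold toward mesenchyme and 0 toward ectoderm, the largest level among them being that of Sema6c at 29.7 TPM in WT ectoderm and 60.8 TPM in WT mesenchyme.

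The coreceptors of these ligands were placed in the other layer. Nrp1 and Nrp2 bind class 3 semaphorins and forms of Vegf. Nrp1 was at 1.58 TPM in WT ectoderm and 27.1 TPM in WT mesenchyme (log2 ratio -3.44), and Nrp2 at 9.92 and 67.1 TPM (-2.64). Plxnd1, a plexin of embryonic blood vessels, was at 3.06 TPM in WT ectoderm and 43.4 TPM in WT mesenchyme (-3.45). Endothelial markers were all past 2-fold in the same direction, and their part in the values of Plxnd1 and Nrp1 was not tested. Plexins of the A and B classes were within 2-fold between the layers except Plxna2 and Plxna4. Plxnb2, with the highest level of the family, was at 133 TPM in WT ectoderm and 167 TPM in WT mesenchyme, Plxna1 at 41.6 and 45.8 TPM, and Plxnb1, a receptor for Sema4d, at 105 and 54.1 TPM. Plxna2 was past 2-fold toward ectoderm, at 30.4 and 14.7 TPM, and Plxna4 toward mesenchyme, at 1.41 TPM in WT ectoderm and 4.78 TPM in WT mesenchyme (-1.26).

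Eph receptors showed the widest separation within a family. Epha1, an Eph receptor known from epithelia, was at 48.8 TPM in WT ectoderm and 3.64 TPM in WT mesenchyme (log2 ratio 3.42). Epha3 was the reverse, at 1.65 TPM in WT ectoderm and 38.8 TPM in WT mesenchyme (-3.91), the largest layer difference among the 60 members. Ephb3 was at 31.8 TPM in WT ectoderm and 81.7 TPM in WT mesenchyme (-1.33), and Ephb6, a receptor without kinase activity, at 8.88 and 21.97 TPM (-1.22). The other members with roles in the palate or vessels were shared between the layers within 2-fold: Ephb2 was at 37.3 TPM in WT ectoderm and 33.1 TPM in WT mesenchyme, Epha4 at 55.7 and 77.5 TPM, and Ephb4, the receptor of embryonic veins, at 61.6 and 107.8 TPM. Epha2 was past 2-fold toward ectoderm, at 18.6 and 7.04 TPM.

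Ephrins were expressed in both layers, and all 8 reached 5.41 TPM or more in WT mesenchyme. Efna1 was the ligand of ectoderm, at 80.4 TPM in WT ectoderm and 23.0 TPM in WT mesenchyme (log2 ratio 1.76). Efnb1, whose gene is mutated in human craniofrontonasal syndrome, was at 23.1 TPM in WT ectoderm and 72.3 TPM in WT mesenchyme (-1.61), and Efnb3 at 15.4 and 53.0 TPM (-1.72). The other 5 were within 2-fold, among them Efnb2, the ephrin of arteries, at 65.9 TPM in WT ectoderm and 49.2 TPM in WT mesenchyme, Efna4 at 52.1 and 57.9 TPM, and Efna2 at 17.5 and 35.8 TPM. Efna1, Efna3 and Efna4 lie side by side on chromosome 3, at 89271733 to 89281142, 89313899 to 89322965 and 89333390 to 89338028 (GRCm38), and had log2 layer ratios of 1.76, 0.74 and -0.15.

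Slits and netrins lay on opposite sides. Ntn1, an attractant of axons, was at 17.4 TPM in WT ectoderm and 7.84 TPM in WT mesenchyme (log2 ratio 1.06), and Ntn4, a netrin of basement membranes, at 7.56 and 1.08 TPM (2.04). Slit2 was at 11.1 TPM in WT ectoderm and 27.2 TPM in WT mesenchyme (-1.22), and Slit3 at 2.19 and 21.7 TPM (-2.83). Members of the Robo family had the same direction as the Slits. Robo1 was at 29.4 and 82.0 TPM (-1.45), Robo2 at 22.8 and 44.05 TPM (-0.92), and Robo4, a receptor of endothelial cells, at 0.34 and 15.1 TPM (-3.58). Among netrin receptors, Unc5b was at 27.7 TPM in WT ectoderm and 17.2 TPM in WT mesenchyme, within 2-fold, and Unc5c was lower in ectoderm, at 7.58 and 19.8 TPM.

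**Figure D2:**
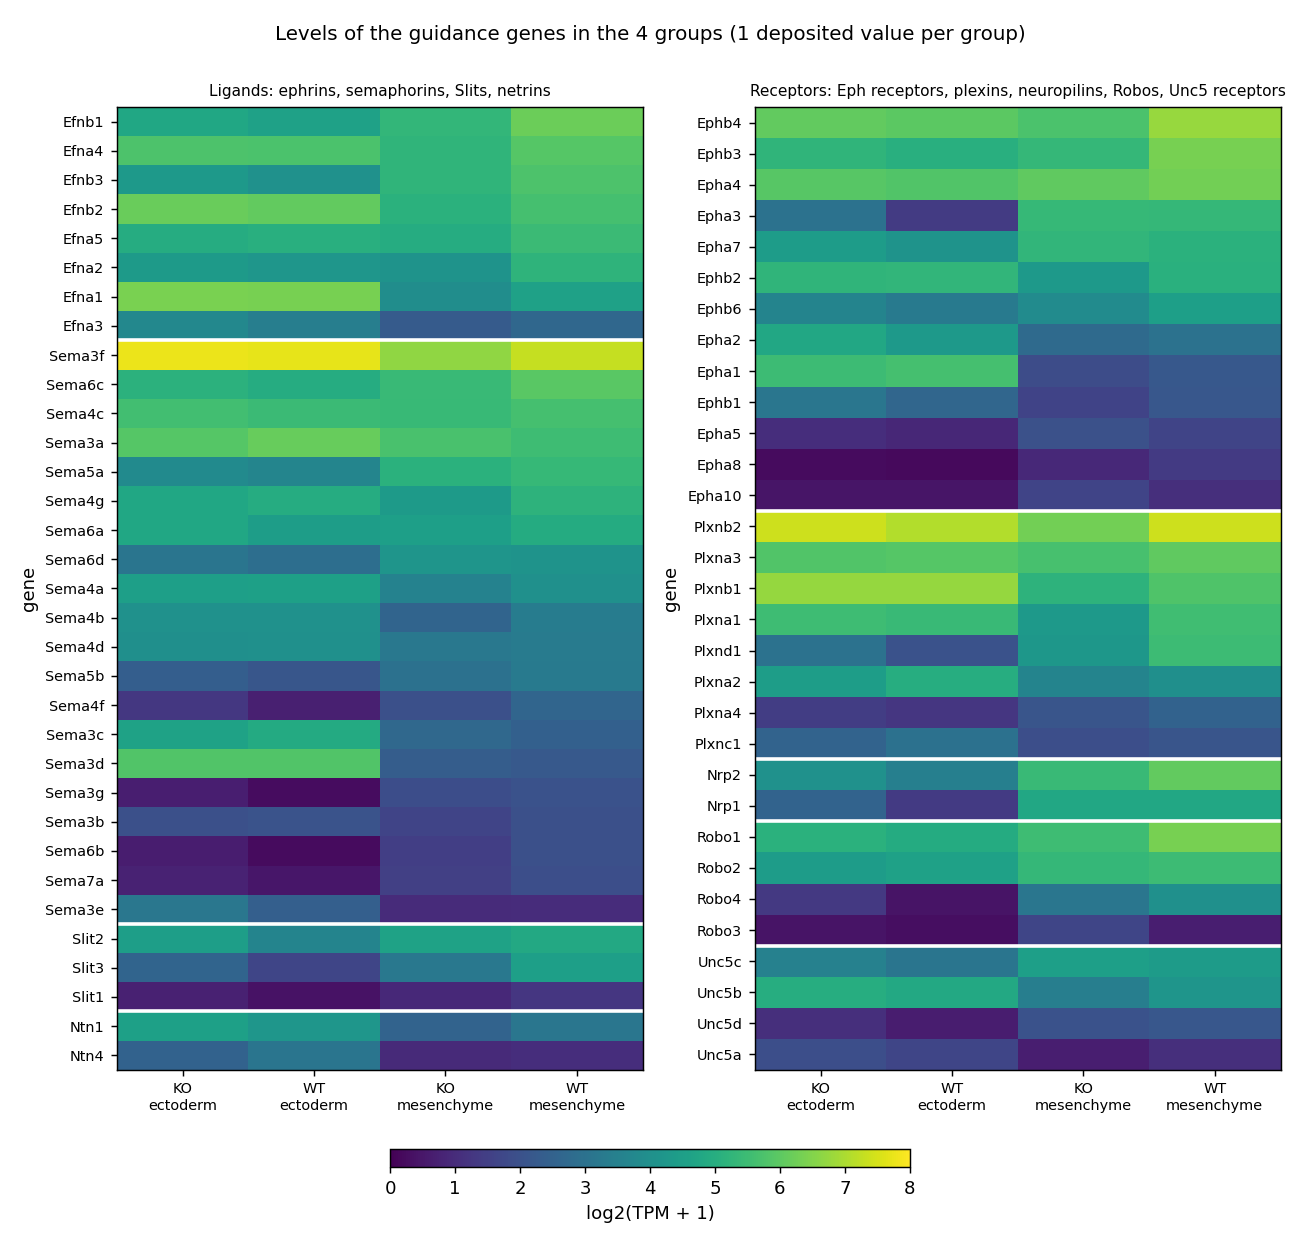
Rows are the 64 guidance genes at 1 TPM or more, ligands on the left and receptors on the right, with white lines between families, and columns are KO ectoderm, WT ectoderm, KO mesenchyme and WT mesenchyme. Colour is log2(TPM + 1) of the 1 deposited value per group. Sema3f and Plxnb2 are the brightest rows, and the pair Epha1 and Epha3 shows opposite layers.

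In KO ectoderm 8 guidance genes were higher than in WT ectoderm by 1.5-fold or more and 0 were lower, of 54 with a mean of at least 1 TPM. The 8 were the receptors Epha3, Nrp1, Plxnd1 and Nrp2 and the ligands Slit3, Slit2, Sema3e and Sema4f. Over all genes tested 4.92% were higher and 0.452% lower. The members' median log2 ratio was 0.15, beside 0.05 for all genes. After quantile normalization of the 4 columns the split was 5 higher and 2 lower, against 3.35% and 0.904% of all genes.

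Epha3 had the highest ratio, at 7.13 TPM in KO ectoderm against 1.65 TPM in WT ectoderm (log2 ratio 1.62). Nrp1 was at 4.79 TPM in KO ectoderm and 1.58 TPM in WT ectoderm (1.17), Plxnd1 at 7.01 and 3.06 TPM (0.98), and Slit3 at 4.95 and 2.19 TPM (0.90). Each of these stayed far below its level in WT mesenchyme. Slit2 was at 21.2 TPM in KO ectoderm and 11.1 TPM in WT ectoderm (0.87), Sema3e at 7.98 and 4.41 TPM (0.73), Nrp2 at 15.4 and 9.92 TPM (0.59) and Sema4f at 1.47 and 0.64 TPM (0.59). Sema4f met the limit of a mean of 1 TPM only through KO ectoderm, the group where it was higher. Nrp2 was just inside the 1.5-fold limit, and Ephb1, at 7.86 TPM in KO ectoderm and 5.19 TPM in WT ectoderm (0.52), was just outside it. Robo4 was at 1.49 TPM in KO ectoderm and 0.34 TPM in WT ectoderm, with a mean under the limit of 1 TPM.

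Most of these genes belong to the mesenchyme by their WT levels. In KO ectoderm 14 of 17 mesenchyme markers, 10 of 10 endothelial, 6 of 6 muscle, 5 of 8 neuron and 4 of 6 macrophage markers were higher as well. Red blood cell markers, all past 2-fold toward WT mesenchyme, were higher in 1 of 6 cases, and neural crest glia markers in 2 of 5. Of the 8 guidance genes, 7 had more TPM in WT mesenchyme than in WT ectoderm. At least 5-fold higher there were 6, against 12 of all 64 members (18.8%). The rest of those 12 had a mean under 1 TPM in ectoderm and could not be counted. All members with this excess that entered the comparison were therefore among the 8. The KO ratio and the excess share the WT ectoderm column. The gain in KO ectoderm, as a percentage of the excess of WT mesenchyme over WT ectoderm, was 14.7% for Epha3, 14.1% for Slit3, 12.6% for Nrp1, 9.79% for Plxnd1, 9.63% for Nrp2 and 18.4% for Sema4f. For 15 mesenchyme markers with the same 5-fold excess, the median was 10.9% with quartiles of 7.99 and 11.4%, and for 10 endothelial markers it was 10.2%. When 10.9% of the WT mesenchyme level was subtracted and the rest rescaled, the ratios of Plxnd1 and Nrp2 turned to -0.19 and -0.11. Those of Nrp1, Slit3 and Sema4f came to 0.25, 0.29 and 0.30, and that of Epha3 to 0.69. Plxnd1, Nrp2, Slit3 and Sema4f were lower in KO than in WT mesenchyme by 1.5-fold or more. A subtraction at KO mesenchyme levels was not run.

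**Figure D3:**
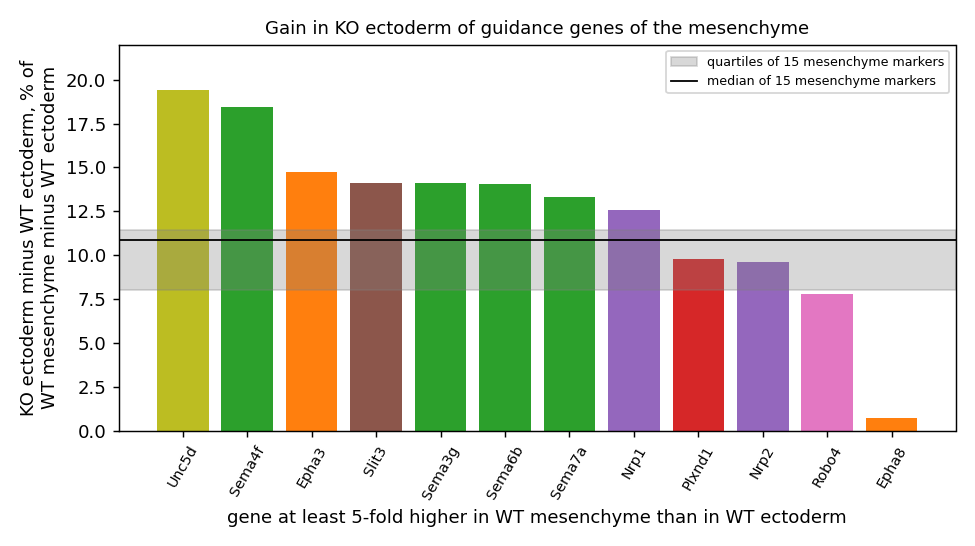
Bars give, for the 12 members whose WT mesenchyme level is 5 times WT ectoderm or more, KO ectoderm minus WT ectoderm as a percentage of WT mesenchyme minus WT ectoderm. The grey band and black line are the quartiles and the median of 15 mesenchyme markers (7.99, 11.4 and 10.9%), and the bars run between 19.4% for Unc5d and 0.704% for Epha8, with a median of 13.7%.

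Slit2 and Sema3e were the members of the 8 without a 5-fold excess in WT mesenchyme. Sema3e had 4.41 TPM in WT ectoderm and 1.03 TPM in WT mesenchyme, and after subtraction of the mesenchyme share its ratio was 0.86. Slit2 had 27.2 TPM in WT mesenchyme, and its ratio after the subtraction was 0.83. Epha2 and Ephb1, which had ratios of 0.49 and 0.52 as deposited, came to 0.61 and 0.60. Epha2, Ephb1, Epha3, Slit2 and Sema3e were then the 5 members of 53 past 1.5-fold, against 2.61% of all genes under the same subtraction. Markers of nasal and olfactory ectoderm were higher in KO ectoderm in 7 of 8 cases, and their part in the values of Slit2, Sema3e, Epha2 and Ephb1 was not tested.

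Several guidance genes with high levels in ectoderm were close between KO and WT. Sema3f was at 217 TPM in KO ectoderm and 208 TPM in WT ectoderm, Sema3d at 55.9 and 56.0 TPM, Sema3a at 58.6 and 69.3 TPM and Sema3c at 23.5 and 28.6 TPM. Epha1 was at 43.4 and 48.8 TPM, Efna1 at 82.6 and 80.4 TPM, Efnb2 at 71.0 and 65.9 TPM and Plxnb1 at 106 and 105 TPM in KO and WT ectoderm. None of these 8 was 1.5-fold apart. Sema3d, Sema3c, Epha1 and Efna1 are among the 9 members past 2-fold toward WT ectoderm, and the others were within 2-fold between WT layers. The rest of the 9 had larger differences between KO and WT ectoderm. Sema3e and Epha2 had ratios of 0.73 and 0.49, and Ntn1, Ntn4 and Plxna2 are given next. Ntn1 was at 22.5 TPM in KO ectoderm and 17.4 TPM in WT ectoderm (log2 ratio 0.36), and Ntn4 at 4.73 and 7.56 TPM (-0.58). Ntn4 had the lowest ratio of the 54 and was just outside the limit. It was past it with a pseudocount of 0.1 (-0.67), after centring on the median of all genes (-0.63), after quantile normalization (-0.72), and after GC (-0.61) or length correction (-0.61). With a pseudocount of 5 (-0.37) and after subtraction of the mesenchyme share (-0.47) Ntn4 was further inside the limit. Plxna2 followed, at 20.99 TPM in KO ectoderm and 30.4 TPM in WT ectoderm (-0.51).

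All 8 ephrins were within 1.5-fold in ectoderm, with ratios between -0.12 for Efna5 and 0.31 for Efna3. EphB receptors were within it as well: Ephb2 was at 36.5 TPM in KO ectoderm and 37.3 TPM in WT ectoderm, Ephb3 at 36.7 and 31.8 TPM, Ephb4 at 67.1 and 61.6 TPM and Ephb6 at 11.3 and 8.88 TPM. Epha4 was at 59.2 and 55.7 TPM. The ligands Efnb1, Efna2 and Efna4 were at 26.0, 19.4 and 53.9 TPM in KO ectoderm and 23.1, 17.5 and 52.1 TPM in WT ectoderm. Plxnb2 was at 167 TPM in KO ectoderm and 133 TPM in WT ectoderm, Plxna1 at 44.9 and 41.6 TPM, Robo1 at 33.3 and 29.4 TPM and Unc5b at 30.7 and 27.7 TPM. Sema4b was at 15.5 TPM in KO ectoderm and 15.4 TPM in WT ectoderm, and Sema4g at 26.3 and 30.2 TPM.

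In KO mesenchyme 22 of 63 members with a mean of at least 1 TPM (34.9%) were lower than in WT mesenchyme by 1.5-fold or more, where 13.4% of all genes tested were lower, and 1 was higher, where 2.33% of all genes were. The 22 were 10 of 33 ligands and 12 of 30 receptors. The members' median log2 ratio was -0.41, beside -0.12 for all genes, and relative to that shift of all genes 14 were lower and 2 higher, against 8.18% and 4.15% of all genes. The other 40 members were within 1.5-fold.

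Of the 22 genes, 19 were in the highest quartile of transcript GC content, a property on which the ratio in this layer depended across the whole table. Of all genes tested, 0.567% in the lowest quartile of transcript GC content were 1.5-fold lower and 33.8% in the highest quartile. Guidance members had a median GC content of 56.1%, ranging between 39.2 and 63.5%, and 36 of 63 (57.1%) were in the highest quartile, above 54.5%. In that quartile 19 of 36 members (52.8%) were lower, and in the lowest quartile 0 of 12. After the trend with GC content was subtracted, 4 of 63 members were lower (Slit3, Plxna1, Robo1 and Plxnd1, 6.35%) and 2 were higher (Robo3 and Epha10), against 2.12% and 4.84% of all genes, and the median of the members was -0.11, beside 0.04 for all genes. Ratios with this subtraction are called GC-corrected below.

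**Figure D4:**
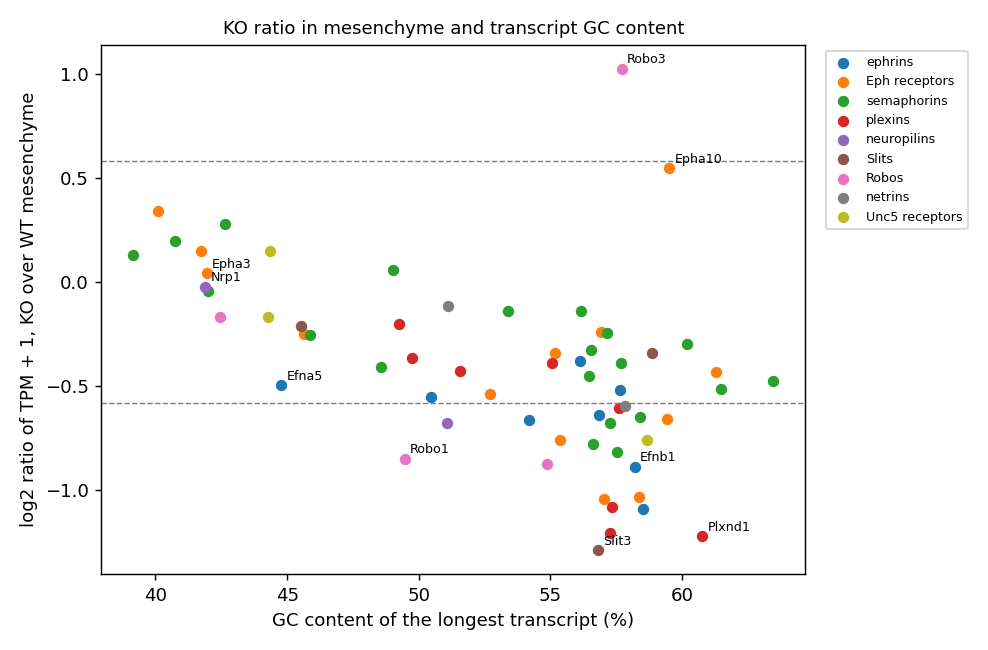
Each point is 1 of 63 guidance genes, coloured by family, with the GC content of its longest transcript on the horizontal axis and the log2 ratio of TPM + 1, KO over WT mesenchyme, on the vertical axis. Dashed lines mark 1.5-fold, and 19 of the 22 points below the lower line lie above 54.5% GC.

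Of the B-class genes, 4 of 5 EphB receptors and 1 of 3 class B ephrins, Efnb1, were past 1.5-fold lower, against 13.4% of all genes. Ephb3 was at 39.0 TPM in KO mesenchyme and 81.7 TPM in WT mesenchyme (log2 ratio -1.05, GC-corrected -0.55), and Ephb4 at 52.0 and 107.8 TPM (-1.04, GC-corrected -0.49). Ephb2 was at 19.1 and 33.1 TPM (-0.76, GC-corrected -0.33) and Ephb6 at 13.6 and 21.97 TPM (-0.66, GC-corrected -0.09). Of 8 EphA receptors, 0 were past the limit. Epha4, for one, was at 65.03 TPM in KO mesenchyme and 77.5 TPM in WT mesenchyme (-0.25), Epha3 at 40.0 and 38.8 TPM (0.04) and Epha1 at 2.66 and 3.64 TPM (-0.34). Transcripts of Epha3 and Epha4 are 41.9 and 45.6% G and C, and those of the 4 EphB receptors between 55.3% for Ephb2 and 59.4% for Ephb6. Other EphA transcripts are as rich: Epha1, Epha2, Epha8 and Epha10 have 55.2, 56.9, 61.3 and 59.5%. Their ratios were -0.34, -0.24, -0.43 and 0.55, with Epha8 and Epha10 at only 1.58 and 1.12 TPM in WT mesenchyme.

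Every ephrin had a ratio below 0 in mesenchyme, where 63.4% of all genes tested did. Past 1.5-fold lower were 4 of 8, where 13.4% of all genes were. Efna2 was at 16.3 TPM in KO mesenchyme and 35.8 TPM in WT mesenchyme (log2 ratio -1.09, GC-corrected -0.54), Efnb1 at 38.6 and 72.3 TPM (-0.89, GC-corrected -0.35), Efna1 at 14.1 and 23.0 TPM (-0.67, GC-corrected -0.28) and Efna4 at 36.7 and 57.9 TPM (-0.64, GC-corrected -0.15). Efnb2 was just outside the limit, at 33.3 and 49.2 TPM (-0.55, GC-corrected -0.33). Efna3 and Efnb3 had ratios of -0.38 and -0.52 and GC-corrected ratios of 0.09 and 0.00. Efna5, whose transcript is 44.8% G and C, kept its ratio under the correction, at 30.3 TPM in KO mesenchyme and 43.1 TPM in WT mesenchyme (-0.50, GC-corrected -0.51). Summed over the 8 ephrins, the level was 209.8 TPM in KO mesenchyme and 339.8 TPM in WT mesenchyme, and over the 13 Eph receptors 283 and 414 TPM.

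Of 8 plexins 4 were past 1.5-fold lower, and of 13 membrane semaphorins 3 were, all of them in class 4, against 13.4% of all genes. Plxnd1 was at 18.0 TPM in KO mesenchyme and 43.4 TPM in WT mesenchyme (log2 ratio -1.23, GC-corrected -0.62), Plxna1 at 19.3 and 45.8 TPM (-1.21, GC-corrected -0.70), Plxnb2 at 78.3 and 167 TPM (-1.08, GC-corrected -0.57) and Plxnb1 at 35.1 and 54.1 TPM (-0.61, GC-corrected -0.09). The remaining 4 plexins had ratios between -0.43 and -0.20. Sema4g was at 19.5 TPM in KO mesenchyme and 35.04 TPM in WT mesenchyme (-0.82, GC-corrected -0.30), Sema4b at 5.01 and 9.31 TPM (-0.78, GC-corrected -0.29) and Sema4f at 2.84 and 5.14 TPM (-0.68, GC-corrected -0.17). The class 4 members Sema4a, Sema4c and Sema4d were within the limit, with ratios of -0.45, -0.25 and -0.14 and GC-corrected ratios of 0.02, 0.26 and 0.22. Among class 3 ligands Sema3f was past the limit, at 100.1 TPM in KO mesenchyme and 158 TPM in WT mesenchyme (-0.65, GC-corrected -0.11). Sema3a, Sema3c and Sema3d, with GC-poor transcripts, were at 51.3, 5.57 and 4.17 TPM in KO mesenchyme and 44.6, 4.42 and 3.72 TPM in WT mesenchyme, and Sema3e was at 0.97 and 1.03 TPM.

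The neuropilins differed in this comparison. Nrp2 was at 41.6 TPM in KO mesenchyme and 67.1 TPM in WT mesenchyme (log2 ratio -0.68, GC-corrected -0.42), and Nrp1 at 26.6 and 27.1 TPM (-0.02). Their transcripts are 51.1 and 41.9% G and C.

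Slit3 had the lowest ratio of all 63 members, at 8.28 TPM in KO mesenchyme and 21.7 TPM in WT mesenchyme (log2 ratio -1.29), and it was also lowest after GC correction (-0.80). Slit2 was at 23.4 and 27.2 TPM (-0.21). Robo1 was at 45.0 TPM in KO mesenchyme and 82.0 TPM in WT mesenchyme (-0.85, GC-corrected -0.67), while Robo2, its neighbour on chromosome 16, was at 39.1 and 44.1 TPM (-0.17). The transcript of Robo1 is 49.5% G and C, below the median of all genes, 49.7%. Robo4 was at 7.76 and 15.1 TPM (-0.88, GC-corrected -0.46). Robo3, the 1 member higher in KO mesenchyme, was at 2.22 TPM in KO mesenchyme and 0.58 TPM in WT mesenchyme (1.03), and it is named after its value was seen. It met the limit of a mean of 1 TPM only through KO mesenchyme. Robo3 and Robo4 lie 0.554 kb apart on chromosome 9 (37415669 to 37433246 and 37401897 to 37415115).

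Markers of cell types differed in the same comparison. Mesenchyme markers were lower in KO mesenchyme by 1.5-fold in 9 of 17 cases with a median log2 ratio of -0.59. Endothelial markers were lower in KO mesenchyme by 1.5-fold in 3 of 10 cases with a median log2 ratio of -0.43, and 6 of 10 neuron markers were higher with a median of 0.70. Over all genes tested 13.4% were lower and 2.33% higher, and the marker ratios were not GC-corrected. Plxnd1, Robo4 and Ephb4 are known from endothelial cells and Robo3 from neurons with crossing axons, and the part of these cell types in the members' values was not tested. Among netrins and their receptors, Ntn1 was at 4.84 TPM in KO mesenchyme and 7.84 TPM in WT mesenchyme (-0.60, GC-corrected -0.07), Ntn4 at 0.92 and 1.08 TPM, and Unc5b at 9.74 and 17.2 TPM (-0.76, GC-corrected -0.21). Ntn1 was just inside the limit.

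**Figure D5:**
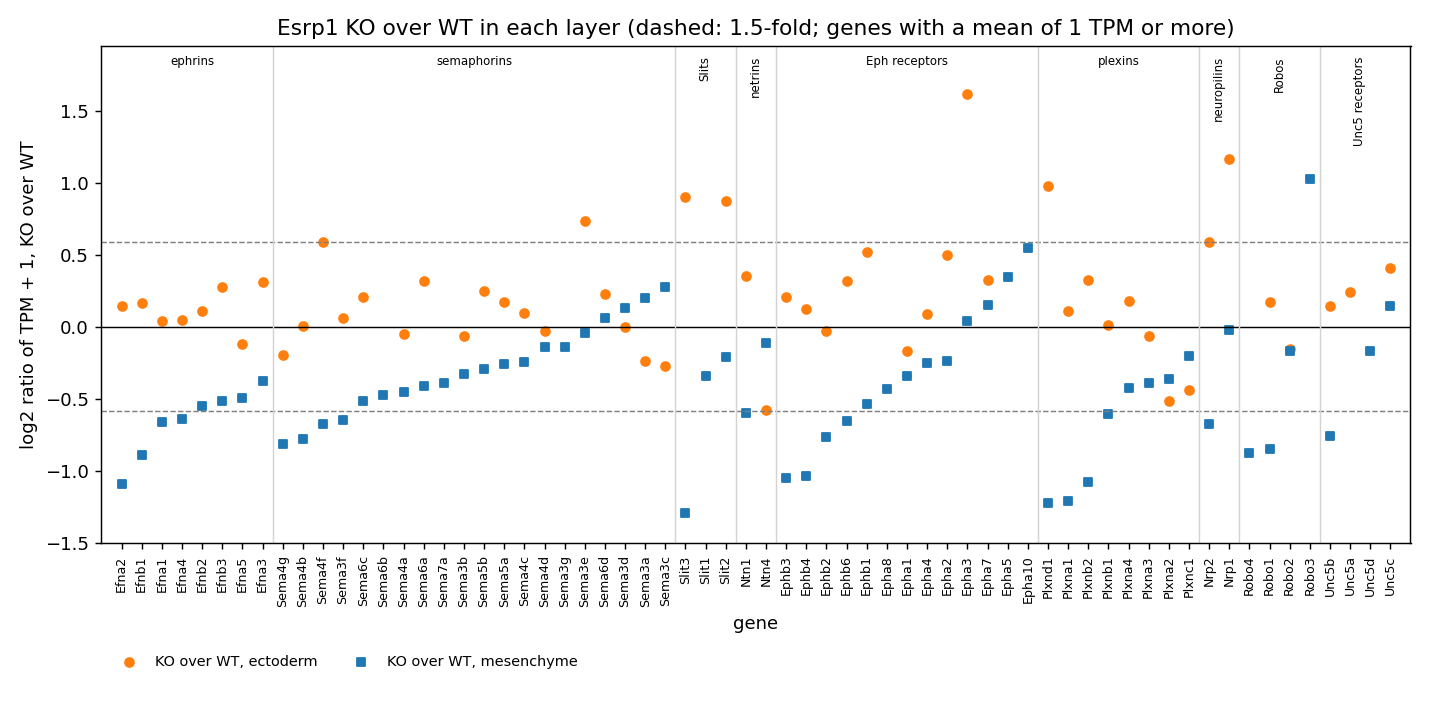
Circles give the log2 ratio of TPM + 1 of KO over WT in ectoderm and squares the same ratio in mesenchyme, by gene and family, for genes with a mean of 1 TPM or more in that layer. Dashed lines mark 1.5-fold. In mesenchyme 22 squares lie below the lower line and 1, Robo3, above the upper one, and in ectoderm 8 circles lie above the upper line.

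Set side by side, the ratios of KO over WT were higher in ectoderm than in mesenchyme for 53 of 60 members (88.3%). The same held for 67.5% of all genes tested. The difference between the KO ratios, ectoderm minus mesenchyme, was 2-fold or more in 16 of 60 members, where 7.34% of all genes tested were, and was 2-fold in the other direction in 0, where 0.593% of all genes were. Its median was 0.69 for the members and 0.19 for all genes, and relative to that shift 10 members were past 2-fold, against 4.1% of all genes. After GC correction 6 of 60 were, against 2.2% of all genes. Plxnd1 (2.21) and Slit3 (2.19) had the largest differences. Of the 8 genes higher in KO ectoderm (50%) and the 22 lower in KO mesenchyme (18.2%), 4 were the same: Plxnd1, Slit3, Nrp2 and Sema4f. Over all genes, 168 were the same, which is 24.5% of the 686 higher in KO ectoderm and 8.83% of the 1902 lower in KO mesenchyme.

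The layer difference within KO faces moved with these ratios. Between KO ectoderm and KO mesenchyme, 18 of 62 members were at least 2-fold higher in ectoderm, where 9.06% of all genes were, and 11 were lower, where 6.88% of all genes were. The median log2 ratio of KO ectoderm over KO mesenchyme was 0.16 for the members and 0.00 for all genes. Epha1 (3.60) and Sema3d (3.46) remained at the ectoderm end and Epha3 (-2.33) and Nrp1 (-2.25) at the mesenchyme end. Ephb3 had 36.7 TPM in KO ectoderm and 39.0 TPM in KO mesenchyme, a log2 ratio of -0.08, and Plxnb2 had 167 and 78.3 TPM (1.08). Summed over the 33 ligands, the level was 947 TPM in KO ectoderm and 904 TPM in WT ectoderm, and 627 TPM in KO mesenchyme and 899 TPM in WT mesenchyme. The 31 receptors added to 847 and 769.6 TPM in KO and WT ectoderm and to 698 and 1089.7 TPM in KO and WT mesenchyme.

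Other genes of these pathways, a list of 54 receptors, ligands and signalling proteins outside the name patterns, were counted in the same way. In KO ectoderm 3 of 51 (5.88%) were higher, near the 4.92% of all genes, and 0 were lower: Kdr, a Vegf receptor that is also one of the endothelial markers, at 2.92 TPM in KO ectoderm and 0.64 TPM in WT ectoderm (log2 ratio 1.26), and the semaphorin mediators Dpysl4 (8.87 and 4.25 TPM) and Crmp1 (12.0 and 6.22 TPM). In KO mesenchyme 12 of 51 (23.5%) were lower, against 13.4% of all genes, and 0 were higher, with a median of -0.27. Rgma, a ligand of neogenin, was at 9.92 TPM in KO mesenchyme and 21.2 TPM in WT mesenchyme (-1.03, GC-corrected -0.43). Gpc1, a proteoglycan that binds Slits, was at 37.0 and 69.4 TPM (-0.89, GC-corrected -0.33). Farp1, a plexin-linked exchange factor, was at 62.7 and 110.5 TPM (-0.81, GC-corrected -0.36), and Abl1, a kinase in Robo signalling, at 85.0 and 141 TPM (-0.73, GC-corrected -0.26). The netrin receptors Neo1 and Dcc were within 1.5-fold, Neo1 at 46.7 TPM in KO mesenchyme and 66.3 TPM in WT mesenchyme and Dcc at 2.04 and 1.22 TPM. Enah, an actin regulator with exons spliced by Esrp proteins, was at 135 TPM in KO ectoderm and 140.2 TPM in WT ectoderm, and values per gene do not separate its splice forms.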

How the data were processed

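RNA was sequenced from 16 libraries in 4 groups, and expression was deposited as 1 table of TPM with 1 column per group. Each column is named for a group of 4 libraries. The submitters' processing notes name STAR 2.5.2a, kallisto 0.43.0 and the mm10 build. The tool by which the authors made the deposited TPM values, the annotation and the handling of replicate libraries were not stated, and depth is unknown.

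A test per library (limma) could not be run. Log2 ratios were taken of TPM + 1, which understates the change of low genes. Genes entered a comparison at a mean of at least 1 TPM over its groups and were counted at 1.5-fold between KO and WT and at 2-fold between layers and between KO ratios. All symbols were processed and only guidance genes are reported. Where a symbol had several rows, 103 cases and none a member, the one with the largest total over the groups was used. Transcript length and GC content came from the longest transcript in GENCODE M21 (GRCm38, the assembly called mm10), with 99.3% of symbols matched, and trends were subtracted by lowess (fraction 0.3, genes of at least 5 TPM, statsmodels 0.14.6). The mesenchyme share of KO ectoderm was the median gain over mesenchyme markers with a 5-fold excess in WT mesenchyme. That share of the WT mesenchyme level was subtracted, and the rest was rescaled. The code was tested on simulated data.

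Genes named with values were members past 1.5-fold in a KO comparison with at least 5 TPM, the 5 largest layer differences in each direction, the highest of each family and 14 genes with facial roles. Epha2, Epha8, Epha10, Ephb1, Efna3, Efna5, Efnb3, Plxna2, Plxna4, Robo2, Robo3, Sema3g, Sema4a, Sema4c, Sema4d, Sema6c, Unc5c and Unc5d fall outside this rule and were chosen after their values were seen. Members, gene lists and markers were chosen with earlier results of these data known.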

Additional observations from a re-analysis of the deposited data

Results flagged for a closer look

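Of the genes above, 4 had KO ratios past 1.5-fold in opposite directions in ectoderm and mesenchyme, and the difference between layers was not tested, since each group has 1 value. The ectoderm ratio minus the mesenchyme ratio, on the log2 scale, was 2.21 for Plxnd1, 2.19 for Slit3, 1.27 for Nrp2 and 1.27 for Sema4f. Over all genes 168 had this pattern, 24.5% of those higher in KO ectoderm. All 4 had more TPM in WT mesenchyme than in WT ectoderm. Sema4f, at 0.64 TPM in WT ectoderm, entered the ectoderm comparison only through its KO value. The mesenchyme share was subtracted at WT mesenchyme levels. After it, the ectoderm ratios were -0.19 for Plxnd1, 0.29 for Slit3, -0.11 for Nrp2 and 0.30 for Sema4f, all within 1.5-fold. All 4 were lower in KO mesenchyme than in WT mesenchyme, and a subtraction at KO mesenchyme levels was not run. After GC correction the mesenchyme ratios of Plxnd1 (-0.62) and Slit3 (-0.80) were still past 1.5-fold, and those of Nrp2 (-0.42) and Sema4f (-0.17) were within it.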

How the results depend on the processing

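Counts of members moved with several choices, and each is given with the share of all genes past the same limit. In KO ectoderm, 8 of 54 members were higher (4.92% of all genes), and 2 of 54 were with a pseudocount of 5 (1.72%), 4 of 46 at a mean of at least 5 TPM (2.92%), 5 of 54 after quantile normalization (3.35%) and 5 of 53 with the mesenchyme share taken off (2.61%). Against 0 lower there, 1 was lower with a pseudocount of 0.1 (0.847%), 1 after centring on the median of all genes (0.624%), 2 after quantile normalization (0.904%), 1 after GC correction (0.644%) and 1 after a correction for transcript length (0.601%). In KO mesenchyme, 22 of 63 were lower (13.4%), and 14 were after centring (8.18%), 13 after quantile normalization (6.82%), 4 after GC correction (2.12%) and 12 after length correction (6.49%). Against 1 higher, 2 were higher with a pseudocount of 0.1 (3.72%), after centring (4.15%), after GC correction (4.84%) and after length correction (3.99%), and 0 with a pseudocount of 5 (0.836%) or at 5 TPM (1.59%). Between WT layers, a pseudocount of 5 gave 5 of 60 higher (4.02%) and 11 lower (6.38%) in ectoderm. Between KO layers, 4 of 62 were lower in ectoderm with a pseudocount of 5 (2.85%) and 7 of 46 at 5 TPM (5.51%). For the difference of KO ratios, 16 of 60 as deposited (7.34%) became 8 with a pseudocount of 5 (3.03%), 10 after centring (4.1%), 8 after quantile normalization (3.35%), 6 after GC correction (2.2%), 9 after length correction (3.76%) and 10 after the mesenchyme subtraction (4.5%). That subtraction, at WT mesenchyme levels, turned the ectoderm ratios of Nrp2 (-0.11) and Plxnd1 (-0.19). Of 900 ratios of named genes over all alternatives, 814 kept their side of the size limit, 84 moved across it and 2 reversed. Settings of the filter change only which genes enter and leave each ratio as it was. Their ratios therefore kept their side by construction: 98 without a filter, 98 at 1 TPM in any group and 85 at a mean of 5 TPM. GC correction moved 23 of 98. The cause of these shifts was not tested. No paired analysis was possible because the table holds 1 value per group, and leaving out a replicate was not run for the same reason. Depth is unknown, so low values such as those of Epha8 and Sema4f carry an unknown counting error.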
